A study of Mus musculus with 10 samples.

Results

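The genes described are 8 that mark eosinophils in the mouse: Prg2, Epx, Ear1, Ear2, Ear6, Ear10, Siglecf and Alox15. They were taken by gene symbol from a table of transcript levels in lung tissue, where they hold 9 of 66548 transcript rows and are 8 of 24394 gene symbols. Each has 1 row except Siglecf, which has 2, and rows were summed per symbol. All mice were female BALB/c of 8 weeks. The Saline mice (n = 3) received saline and no ovalbumin. The OVA mice (n = 3) were sensitized by injection of ovalbumin, an egg protein, with alum and then challenged with it through the nose, which provokes allergic airway inflammation resembling asthma. The Herb mice (n = 4) went through the same ovalbumin protocol and were given an ethanol extract of Descurainia sophia seeds by mouth at 200 mg per kg. The libraries are of whole lung, so all cell types of the organ contribute, and fewer cells of a type and less RNA per cell cannot be told apart. The study counts each library as a separate mouse.

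Eosinophils are granulocytes that enter the lung in allergic inflammation and release a set of cationic granule proteins. Prg2 encodes major basic protein, the core of the granule, Epx encodes eosinophil peroxidase, and the Ear genes encode eosinophil-associated ribonucleases, a family that has multiplied in rodents. Siglecf is a sialic acid-binding inhibitory receptor on eosinophils, and Alox15 is a lipoxygenase that makes lipid mediators from arachidonic acid. Not all of these genes are private to eosinophils in the mouse lung: alveolar macrophages carry Siglecf at high level and also express Ear1 and Ear2, and some macrophages use Alox15. Transcription of the granule protein genes is strongest in eosinophil precursors of the bone marrow.

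Levels are given in FPKM, a measure per length of transcript and per mapped fragment of the library. The depth estimated from the smallest values was 14748937 to 29404306 fragments a library. Saline libraries had 33.2% ± 0.207 (SD, n = 3) of their fragments on protein-coding transcripts, OVA libraries 13.4% ± 1.49 (SD, n = 3) and Herb libraries 22.8% ± 2.83 (SD, n = 4), and the groups did not overlap. Rn45s, the ribosomal RNA precursor, was at 1307 ± 95.8 FPKM in Saline, 11249 ± 1979 in OVA and 5465 ± 1707 in Herb. A library with more of its fragments elsewhere shows lower FPKM for the protein-coding genes as a whole, and over the 11205 symbols with a mean of at least 1 FPKM the log2 fold change had a median of -0.75 in OVA vs. Saline, 0.48 in Herb vs. OVA and -0.27 in Herb vs. Saline. The fits of the tested members and of the other listed genes were therefore also made after the libraries were brought to a common 75th percentile, by quantile normalization, or to a common sum of the protein-coding rows. The values of Prg2, Epx and Ear6, the summed levels and the likeness between symbols are given in FPKM as deposited only. Since Gapdh, a glycolytic gene that every cell uses, has an exact 0 in 9 libraries, such a value may be a failed estimate.

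The 4 Ear members are close copies of each other, and their sequences show how far reads can tell them apart. They lie on chromosome 14 (GRCm38, the assembly of mm10): Ear1 at chr14:43818765-43819639, Ear10 at chr14:43922898-43923596, Ear2 at chr14:44102654-44103531 and Ear6 at chr14:51853768-51854643. The first 90 bases of their coding sequences, each within 1 coding exon, are printed 5′ to 3′ with those of Rnase2a, a relative outside the 8 genes that is described further down. Capitals mark the bases that differ from Ear1 at the same position, compared without gaps.
Ear1 (chr14:43819320-43819409, minus strand): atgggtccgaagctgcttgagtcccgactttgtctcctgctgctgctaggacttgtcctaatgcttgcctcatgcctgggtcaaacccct
Ear2 (chr14:44102887-44102976, plus strand): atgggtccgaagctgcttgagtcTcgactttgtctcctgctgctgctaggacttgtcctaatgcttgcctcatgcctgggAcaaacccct
Ear10 (chr14:43923279-43923368, minus strand): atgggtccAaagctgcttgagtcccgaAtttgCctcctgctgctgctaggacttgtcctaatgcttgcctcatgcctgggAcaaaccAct
Ear6 (chr14:51853998-51854087, plus strand): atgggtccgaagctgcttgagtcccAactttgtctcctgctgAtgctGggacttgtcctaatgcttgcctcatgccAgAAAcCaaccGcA
Rnase2a (chr14:51255817-51255906, minus strand): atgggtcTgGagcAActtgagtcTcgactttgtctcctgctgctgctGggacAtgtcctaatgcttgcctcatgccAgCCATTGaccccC

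In this stretch Ear2 differed from Ear1 at 2 bases, Ear10 at 5, Ear6 at 10 and Rnase2a at 15. Over the whole coding sequence, aligned with gaps, Ear1 was identical to Ear2 at 95.1% of the aligned positions, to Ear10 at 94.4% and to Ear6 at 87.3%, and Ear2 was identical to Ear10 at 97.0%. Of all windows of 76 bases along the transcript, 38.7% in Ear1, 22.8% in Ear2 and 45.5% in Ear10 occur without mismatch in another annotated transcript, namely in each other or in the pseudogenes Ear-ps2 and Ear-ps9. No such window was shared by Ear6, Rnase2a, Prg2, Epx, Siglecf or Alox15. How the authors' quantification divided reads between copies is not given in the sources used here, so the levels of Ear1, Ear2 and Ear10 are uncertain one by one. The sequence of Ear12, a further relative, was not analysed here, so windows that it may share with the 4 Ear members are not counted. The levels of Prg2, Epx, Siglecf and Alox15 do not carry this limit.

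The granule protein genes Prg2 and Epx were at or near 0 in Saline and low in the ovalbumin groups. Prg2 (chr2:84980461-84983632) is listed at 0 in all 3 Saline libraries. In OVA it was at 1.25, 1.65 and 0.876 FPKM, which corresponds to an estimated 30.8, 31.9 and 14.9 fragments. In Herb it was at 0.977, 0, 0.732 and 2.14 FPKM. Thus every OVA library lay above every Saline library, and the Herb libraries spread from the Saline level to above the highest OVA library, with the second Herb library listed at 0. The OVA mean was 1.26 ± 0.386 FPKM (SD, n = 3), and the Herb mean was 0.963 ± 0.890 FPKM (SD, n = 4). The value of 3 fragments ranges from 0.122 to 0.243 FPKM over the 10 libraries for Prg2, so a level up to that value was possible where 0 is listed. No fold is given against Saline, where the gene is listed at 0. A two-sided exact permutation test of the means gave p = 0.1 for OVA vs. Saline, the smallest value that 3 against 3 libraries allow, p = 0.686 for Herb vs. OVA and p = 0.229 for Herb vs. Saline. With a mean over the 10 libraries under 1 FPKM, Prg2 was outside the main fit across symbols, and in the fit without that filter its adjusted p (limma, Benjamini-Hochberg) was 0.027 for OVA vs. Saline, 0.554 for Herb vs. OVA and 0.119 for Herb vs. Saline.

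Epx (chr11:87863997-87875536), the haem peroxidase that forms hypohalous acids in the eosinophil granule, never exceeded an estimated 6 fragments. In Saline it was at 0, 0.0174 and 0 FPKM. In OVA it was at 0.0316, 0.0858 and 0.0493 FPKM. In Herb it was at 0, 0, 0.0153 and 0.114 FPKM. All 3 OVA libraries exceeded all Saline libraries, whereas the fourth Herb library held the highest value of all and 2 of its group are listed at 0. The exact permutation p was 0.1 for OVA vs. Saline, 0.457 for Herb vs. OVA and 0.914 for Herb vs. Saline. The value of 3 fragments is 0.0379 to 0.0756 FPKM here, so most of these levels are within counting error of 0.

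**Figure D1:**
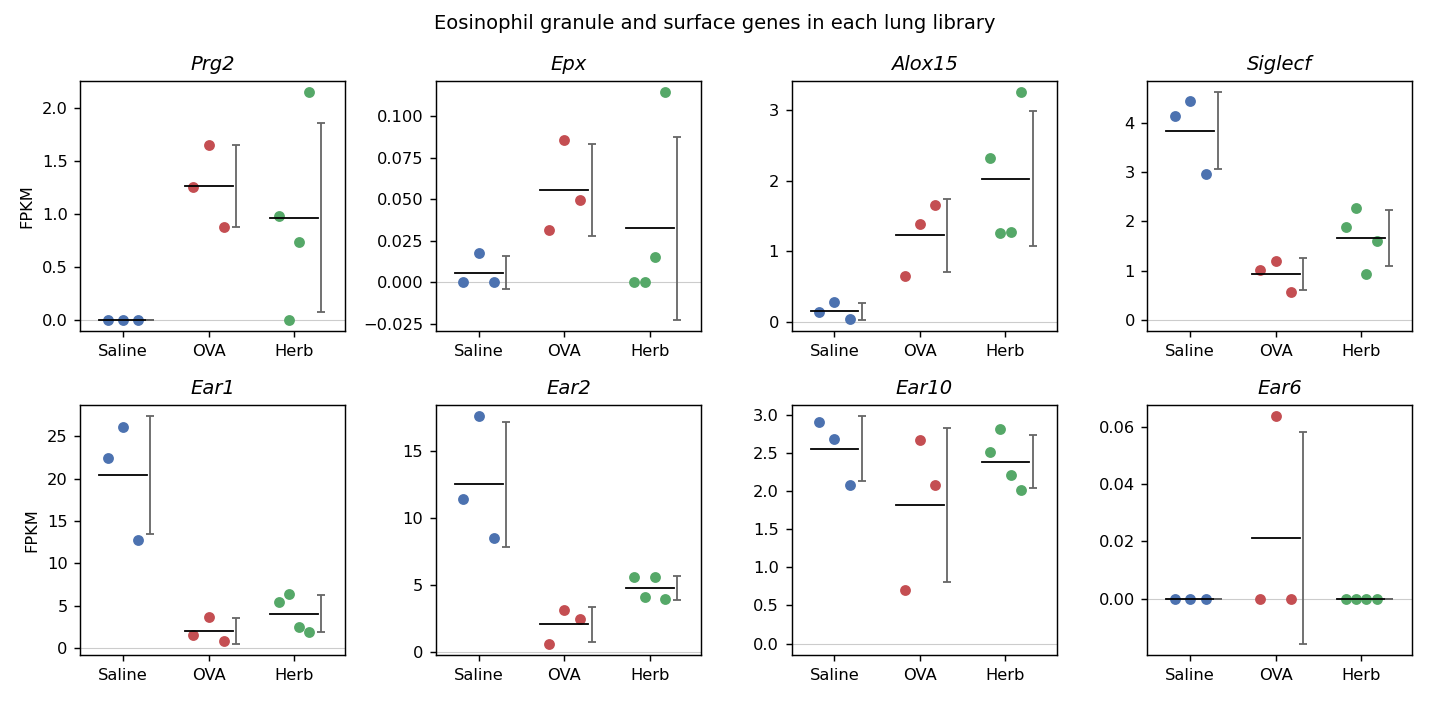
FPKM of the 8 genes (vertical axes, linear, each with its own range) in each library of the Saline, OVA and Herb groups. Points are libraries, black lines are means and grey bars are SD (n = 3, 3 and 4). Ear1, Ear2 and Siglecf are highest in the 3 Saline libraries and Alox15 is lowest there. Prg2 is at 0 in Saline and in 1 Herb library, and Epx and Ear6 stay under 0.12 FPKM everywhere.

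The ribonucleases Ear1 and Ear2 took the opposite course and were highest in the lungs of mice without ovalbumin. Ear1 was at 22.5, 26.2 and 12.7 FPKM in Saline. It was at 1.58, 3.69 and 0.807 FPKM in OVA. It was at 5.49, 6.38, 2.54 and 1.91 FPKM in Herb. No OVA or Herb library reached the lowest Saline library, and OVA and Herb overlapped. The OVA mean was 9.90% of the Saline mean, and the Herb mean was 19.9% of it. On the log2(FPKM + 1) scale, which understates changes of low genes, the change was -2.88 ± 0.46 (SE; adjusted p = 0.00061) in OVA vs. Saline and -2.13 ± 0.43 (adjusted p = 0.012) in Herb vs. Saline. The difference of Herb from OVA was 0.75 ± 0.43 (adjusted p = 0.179), with a 95% interval from -0.22 to 1.73. In Herb vs. Saline the adjusted p of Ear1 was 0.053 without the second Saline library and 0.051 under quantile normalization.

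Ear2 was at 11.4, 17.6 and 8.50 FPKM in Saline. In OVA it was at 0.655, 3.16 and 2.50 FPKM. In Herb it was at 5.60, 4.11, 5.59 and 3.99 FPKM. The 3 groups did not overlap at all, with OVA lowest, Herb between and Saline highest. The OVA mean was 16.8% of that of Saline and the Herb mean 38.5%. The log2 change was -2.17 ± 0.36 (SE; adjusted p = 0.0007) in OVA vs. Saline, 1.00 ± 0.33 (adjusted p = 0.037) in Herb vs. OVA and -1.17 ± 0.33 (adjusted p = 0.033) in Herb vs. Saline. The call in Herb vs. OVA was lost under each of the 3 scalings, where the difference was 0.44 to 0.57 (adjusted p from 0.302 to 0.425), and without the first OVA library, where it was 0.60 (adjusted p = 0.116). It was also lost without the first Saline library or any of Herb replicates 1, 2 and 3, at an adjusted p from 0.051 to 0.082. The call in Herb vs. Saline was lost under the scalings as well, at -0.74 to -0.56 (adjusted p from 0.180 to 0.260), and was lost on leaving out any 1 of the Herb libraries or the first or second Saline library.

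Ear10, the nearest copy of Ear2, had no such separation of the groups. It was at 2.91, 2.68 and 2.08 FPKM in Saline. It was at 0.703, 2.67 and 2.08 FPKM in OVA. It was at 2.51, 2.81, 2.21 and 2.02 FPKM in Herb. Only the first OVA library stood below the others, and all groups overlapped. The log2 change was -0.40 ± 0.26 (SE; adjusted p = 0.204) in OVA vs. Saline, with a 95% interval from -0.98 to 0.18, and its sign turned to 0.18 to 0.62 under the 3 scalings without passing the test. Ear10 also has the largest share of windows in common with other transcripts, and an estimated 9.7 to 29.0 fragments per library lay behind its values. Ear6 is listed at 0 in 9 libraries and was at 0.0637 FPKM, about 1 fragment, in the second OVA library. At 0 fragments, a level of up to 0.285 FPKM was possible in the shallowest library.

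Together, Ear1, Ear2, Ear6 and Ear10 summed to 35.5 ± 11.6 FPKM (SD, n = 3) in Saline. The sum was 5.97 ± 3.36 FPKM (SD, n = 3) in OVA, and it was 11.3 ± 2.69 FPKM (SD, n = 4) in Herb. This sum depends less than the single values on how reads shared among the 4 were divided, although reads given to the pseudogenes or to Ear12 are not in it. Its lowest Saline library, at 23.3 FPKM, was above the highest OVA library at 9.59 and the highest Herb library at 13.6. With all other Ear and Rnase2 symbols added, Ear12 among them, the sum was 103 FPKM in Saline (74.8 to 128), 36.3 in OVA (18.5 to 55.3) and 68.2 in Herb (58.6 to 84.7). In this wider sum Saline and Herb overlapped, and every OVA library was below both groups.

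Other ribonucleases of the same family did not follow a single direction. Rnase2a, an eosinophil-associated ribonuclease also called Ear11, was at 0, 0.267 and 0 FPKM in Saline. It was at 2.06, 9.23 and 13.6 FPKM in OVA. It was at 8.12, 5.44, 25.1 and 17.2 FPKM in Herb. Every ovalbumin-treated library was thus above every Saline library, opposite to Ear1 and Ear2, while OVA and Herb overlapped. The log2 change of Rnase2a was 2.83 ± 0.63 (SE; adjusted p = 0.0038) in OVA vs. Saline and 3.58 ± 0.59 (adjusted p = 0.009) in Herb vs. Saline. Its sequence, printed above, has no window of 76 bases in common with Ear1, Ear2 or Ear10. Ear12, the most abundant of the family, was at 69.8, 81.5 and 51.4 FPKM in Saline. It was at 13.5, 36.4 and 16.1 FPKM in OVA. It was at 49.0, 39.9, 49.2 and 33.6 FPKM in Herb. Ear12 was lower in all OVA and Herb libraries than in any Saline library, with a log2 change of -1.68 ± 0.35 (SE; adjusted p = 0.0026) in OVA vs. Saline and 1.05 ± 0.33 (adjusted p = 0.029) in Herb vs. OVA. The change in Herb vs. Saline was -0.63 and did not pass (adjusted p = 0.176). The call of Ear12 in OVA vs. Saline was lost under all 3 scalings, at -0.56 with a common 75th percentile, -0.19 with the common protein-coding sum and 0.15, with the sign turned, under quantile normalization (adjusted p from 0.193 to 0.731), and the call in Herb vs. OVA was lost under all 3 as well. Ear4 and Rnase2b are listed at 0 throughout, and Ear7 and Ear14 did not exceed 0.105 FPKM.

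**Figure D2:**
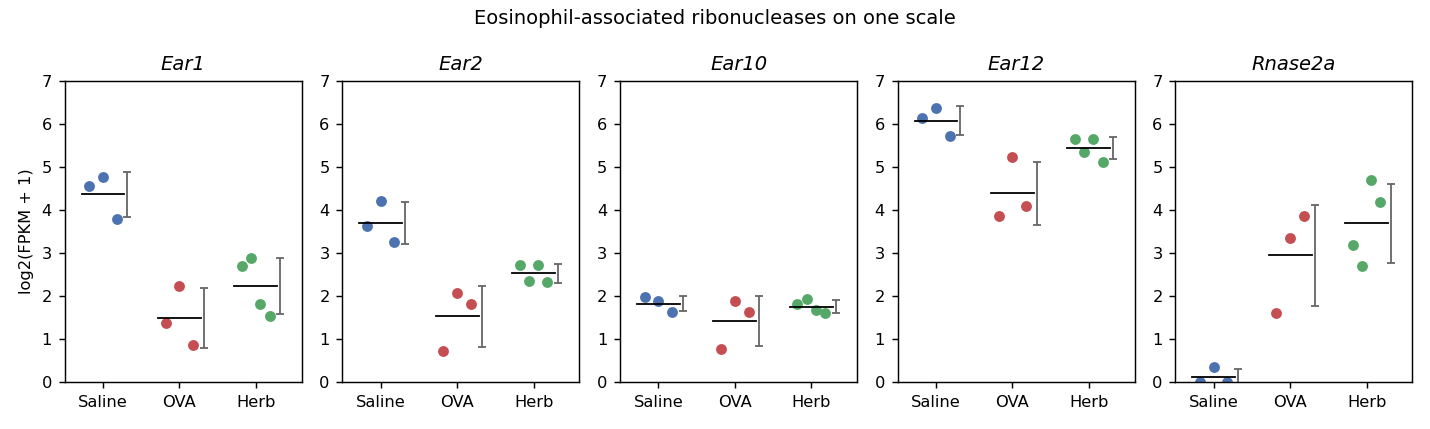
Levels of 5 eosinophil-associated ribonucleases as log2(FPKM + 1) (vertical axes, all from 0 to 7) in each library by group. Points are libraries, black lines are means of the log2 values and grey bars their SD. In FPKM as deposited Ear1, Ear2 and Ear12 are highest in Saline, Ear10 overlaps between all groups, and Rnase2a is near 0 in Saline and raised in all OVA and Herb libraries.

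The sequence before the genes was compared as well, since Ear1 and Ear2 fell in OVA and Ear10, with a similar upstream region, did not pass the test. RefSeq promoter windows (GRCm38.p6) were at hand for 6 of the 8 members: Epx, Ear1, Ear2, Ear6, Ear10 and Siglecf. Over the 250 bases before the start, Ear1 was identical to Ear2 at 97.6% of the aligned positions and to Ear10 at 91.7%, and Ear6 was identical to these 3 at 77.3% to 79.6%. The last 120 bases before the start are printed 5′ to 3′, with capitals on the word CCAAT, which was searched on both strands.
Ear1 (chr14:43819640-43819759, minus strand): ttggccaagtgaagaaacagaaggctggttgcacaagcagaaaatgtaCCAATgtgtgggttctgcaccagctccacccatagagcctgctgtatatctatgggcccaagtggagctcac
Ear2 (chr14:44102534-44102653, plus strand): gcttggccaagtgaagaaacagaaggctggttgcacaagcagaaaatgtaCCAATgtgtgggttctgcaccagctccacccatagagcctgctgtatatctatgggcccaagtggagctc
Ear10 (chr14:43923597-43923716, minus strand): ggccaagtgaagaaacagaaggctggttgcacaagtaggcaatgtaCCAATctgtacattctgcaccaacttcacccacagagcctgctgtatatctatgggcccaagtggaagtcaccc
Ear6 (chr14:51853648-51853767, plus strand): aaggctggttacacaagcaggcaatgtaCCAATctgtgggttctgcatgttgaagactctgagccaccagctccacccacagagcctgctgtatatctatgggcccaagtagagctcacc

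CCAAT occurred 3 times within 250 bases of Ear1, Ear2 and Ear10, once in Ear6 and not in Epx or Siglecf, against 33.8% of 32851 RefSeq windows of that length that hold it at least once. The word GATA with A or T before it and A or G after it, searched on both strands, occurred in none of the 6 members and in 26.5% of all windows. GATA1 is a transcription factor that eosinophil development requires. The word TTNNGNAA, which resembles the site of C/EBP factors, occurred once in each of the 4 Ear members, 2 times in Siglecf and not in Epx, and in 36.8% of all windows.

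Siglecf (chr7:43351341-43359475), the inhibitory receptor through which eosinophil numbers are restrained, was highest in Saline like Ear1 and Ear2. It was at 4.13, 4.43 and 2.97 FPKM in Saline. It was at 1.02, 1.20 and 0.571 FPKM in OVA. It was at 1.88, 2.28, 0.925 and 1.59 FPKM in Herb. All OVA and Herb libraries were below all Saline libraries, and OVA and Herb overlapped through the third Herb library. The OVA mean was 24.2% and the Herb mean 43.4% of the Saline mean. The log2 change was -1.33 ± 0.22 (SE; adjusted p = 0.00078) in OVA vs. Saline, 0.45 ± 0.21 (adjusted p = 0.101) in Herb vs. OVA, with a 95% interval from -0.01 to 0.92, and -0.87 ± 0.21 (adjusted p = 0.019) in Herb vs. Saline. Brought to a common sum of the protein-coding rows, the change in OVA vs. Saline was -0.35 (adjusted p = 0.235), so this call depended on the scaling, while Ear1 and Ear2 passed the test in OVA vs. Saline under all 4. The call in Herb vs. Saline was lost under all 3 scalings (adjusted p from 0.065 to 0.217) and without the first or the second Saline library. Without the third Herb library, Siglecf passed in Herb vs. OVA at 0.60 (adjusted p = 0.029). Nearly all of the level came from 1 transcript, NM_145581, and the other, NM_001271019, is listed at 0 except for 0.440 FPKM in the second and 0.183 FPKM in the fourth Herb library.

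Markers of alveolar macrophages, which also carry Siglecf, were set beside these values. Of 12 such markers, 10 were tested and their median log2 change was -0.50 in OVA vs. Saline. Of these, 2 fell, namely Car4 with a log2 change of -2.03 and Fabp1 with -1.99, 8 did not pass and none rose in FPKM as deposited. With the common protein-coding sum 5 rose and 2 fell, with a median of 0.61, and at a common 75th percentile 3 rose and 2 fell. Their summed level was 160.3 to 281 FPKM in Saline, 105 to 324 FPKM in OVA and 408 to 682 FPKM in Herb, with the chitinase-like gene Chil3 as the largest contributor. In Herb vs. OVA, 3 rose in FPKM as deposited, and none of the 10 rose at a common 75th percentile or with the common protein-coding sum. Chil3 rose by 1.74 ± 0.45 (adjusted p = 0.015) and Car4 by 0.90 ± 0.23 (adjusted p = 0.014). The mannose receptor Mrc1 rose by 0.70 ± 0.24 (adjusted p = 0.040), and its sign reversed under quantile normalization and the common protein-coding sum. In Herb vs. Saline 2 of the 10 rose and 2 fell in FPKM as deposited. Chil3 and Itgax rose, with log2 changes of 2.18 and 1.32, and Fabp1 and Car4 fell, with -1.64 and -1.13. Chil3, Itgax and Fabp1 also passed under all 3 scalings. Cidec is listed at 0 in all OVA libraries and the other 11 were detected in each group. Patrolling monocytes are a further population of lung vessels. Of 8 markers of theirs, 4 were tested in OVA vs. Saline and 2 fell, Ace with a log2 change of -2.35 and Itgal with -0.51, the latter with its sign reversed under all 3 scalings. With the common protein-coding sum 1 of the 4 rose and 0 fell, and at a common 75th percentile 1 rose and 1 fell. Their summed level was 117 to 167 FPKM in Saline and 22.1 to 48.0 FPKM in OVA. Most of it was Ace, at 107 to 152 FPKM in Saline and 13.2 to 39.3 FPKM in OVA. The monocyte markers Nr4a1 and Spn did not pass in FPKM as deposited (adjusted p = 0.102 and 0.242). The vessel markers Cdh5 and Pecam1 fell as Ace did, with log2 changes of -3.25 and -1.49, and which cells held Ace was not tested. The part of alveolar macrophages and patrolling monocytes in the levels of Siglecf, Ear1 and Ear2 was not tested.

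Alox15 (chr11:70344147-70390538), the lipoxygenase, was the only one of the 5 tested members that rose against Saline. It passed the filter of 1 FPKM only through OVA and Herb, with means of 1.23 and 2.03 FPKM against 0.152 in Saline. Prg2, listed at 0 in Saline and higher in every OVA library, was left out of the main fit by the same filter. Alox15 was at 0.138, 0.282 and 0.0378 FPKM in Saline. It was at 0.651, 1.39 and 1.65 FPKM in OVA. It was at 2.32, 1.25, 1.28 and 3.25 FPKM in Herb. Every OVA and Herb library exceeded every Saline library, and Herb overlapped with OVA while reaching higher. The OVA mean was 8.06 times and the Herb mean 13.3 times the Saline mean. The estimated fragments were 1.9 to 14.5 in Saline and 44.5 to 153 in the other libraries. The log2 change was 0.93 ± 0.28 (SE; adjusted p = 0.017) in OVA vs. Saline and 1.35 ± 0.26 (adjusted p = 0.011) in Herb vs. Saline. The difference of Herb from OVA was 0.42 ± 0.26 (adjusted p = 0.220), with a 95% interval from -0.17 to 1.01. Without the third Saline, the second OVA or the third OVA library, the adjusted p of OVA vs. Saline was 0.052, 0.052 and 0.059, whereas under the 3 scalings the change was 1.32 to 1.55 and passed the test.

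Read against the table as a whole, the calls of the members were as follows. Of the 8, 5 had a mean of at least 1 FPKM and were tested, and Prg2, Epx and Ear6 were not. Alox15 passed this filter only through its OVA and Herb levels, which limits how its rise reads beside the share of all symbols. In OVA vs. Saline 3 of the 5 tested fell, where 57.9% of all symbols fell, and Alox15 rose, where 3.28% did. In Herb vs. OVA Ear2 rose, where 44.0% of all symbols did, and none fell, where 0.446% did. In Herb vs. Saline 3 fell, where 22.7% of all symbols did, and Alox15 rose, where 3.32% did. The groups did not overlap for 4 of the 5 in OVA vs. Saline (67.6% of all symbols), for 1 in Herb vs. OVA (50.2%) and for 4 in Herb vs. Saline (43.6%). Single transcript rows gave 4, 1 and 3 calls among the member rows in the same order, beside 44.2%, 32.4% and 8.09% of all 30194 rows tested. With a common sum of the protein-coding rows, 8.81% of all symbols fell in OVA vs. Saline and 37.9% rose. Of the members, Ear1 and Ear2 still fell and Alox15 still rose. In Herb vs. Saline under this scaling 2.85% of symbols fell, with Ear1 among them, and 18.6% rose, with Alox15 among them.

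Relative to the median of all symbols, the log2 change in OVA vs. Saline was -2.13 for Ear1, -1.42 for Ear2, -0.58 for Siglecf, 0.35 for Ear10 and 1.68 for Alox15. The order of the 5 in OVA vs. Saline was the same under all 4 scalings, from Ear1 as the lowest to Alox15 as the highest. In Herb vs. OVA the same 5 lay between -0.15 for Ear10 and 0.52 for Ear2 around the median of all symbols, with Alox15 at -0.06 and Siglecf at -0.03. Both comparisons contain the OVA libraries, so a low OVA library moves a gene down in one and up in the other.

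**Figure D3:**
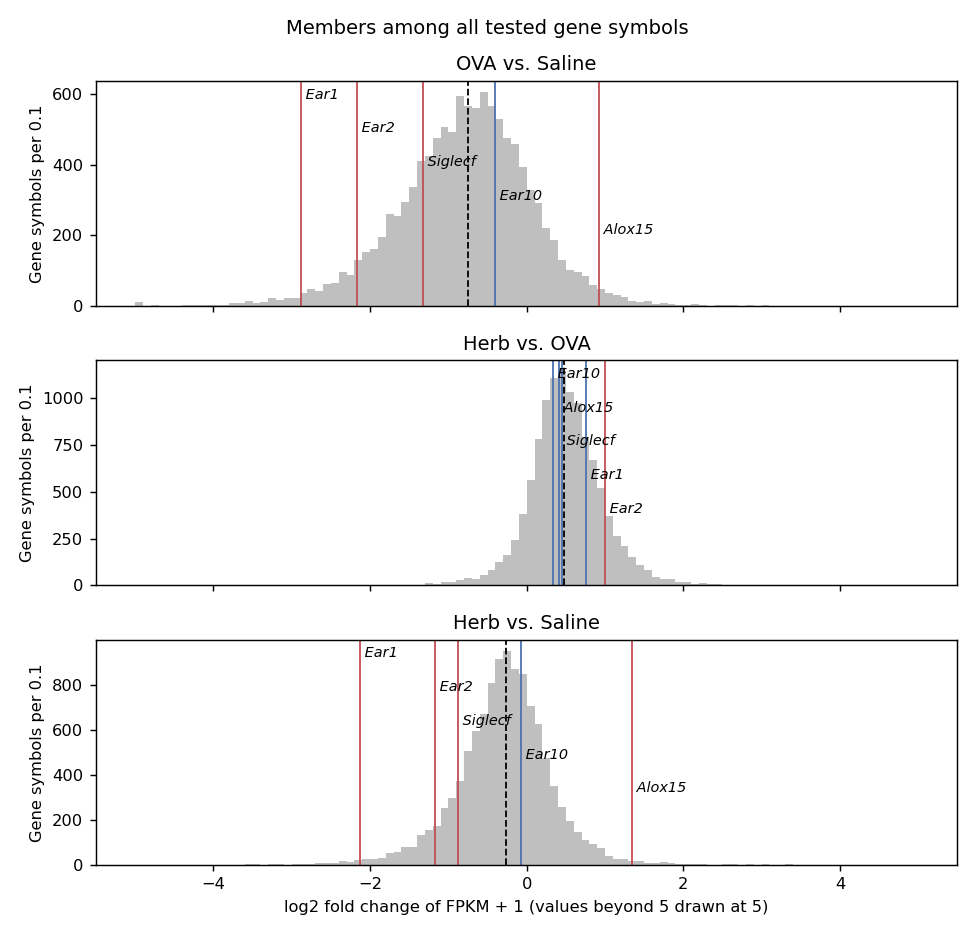
Histograms of the log2 fold change of FPKM + 1 (horizontal axis) over the 11205 symbols tested, counted per 0.1, in OVA vs. Saline, Herb vs. OVA and Herb vs. Saline. Vertical lines are the 5 tested members, red with an adjusted p under 0.05 and blue otherwise, and dashed lines are the medians of all symbols at -0.75, 0.48 and -0.27.

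**Figure D4:**
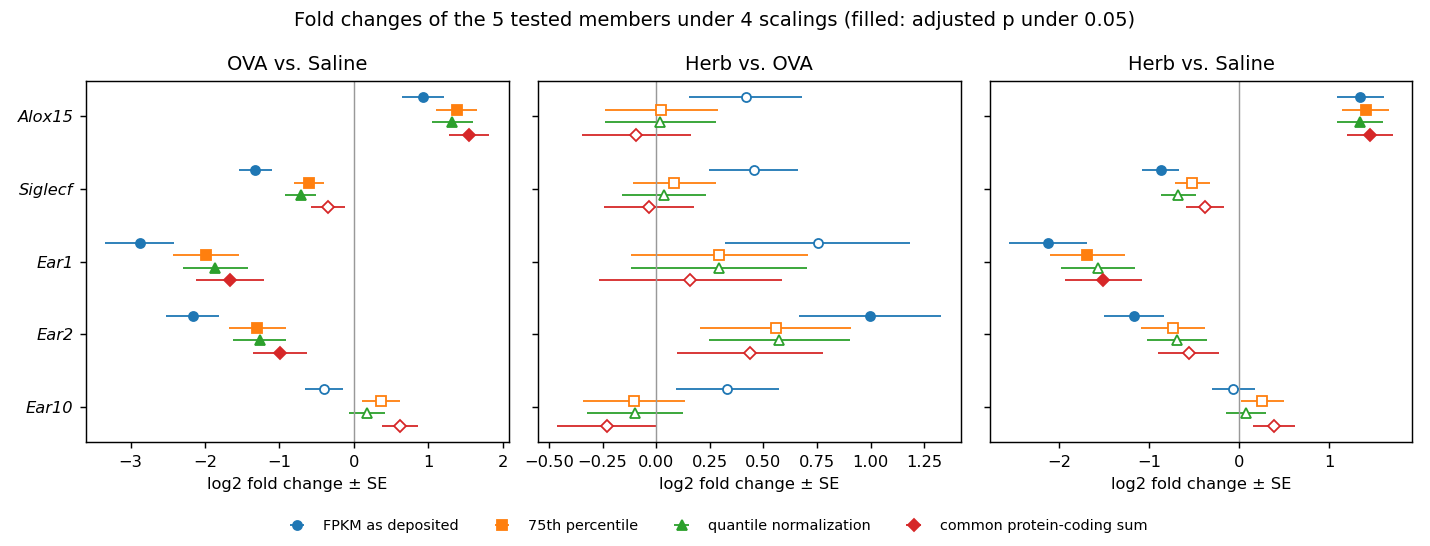
Log2 fold change ± SE (horizontal axis) of the 5 tested members in 3 comparisons for FPKM as deposited and under 3 other scalings, with filled symbols for an adjusted p under 0.05. Ear1, Ear2 and Alox15 are filled under all 4 in OVA vs. Saline, Ear10 crosses 0, and no member is filled in Herb vs. OVA except Ear2 in FPKM as deposited.

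By mean level, the order in Saline was Ear1 at 20.5, Ear2 at 12.5, Siglecf at 3.84, Ear10 at 2.56 and Alox15 at 0.152 FPKM, with Epx at 0.00579 and Prg2 and Ear6 at 0. Ear1 overlapped Ear2 in this order, and Siglecf did not overlap Ear2 or Ear10. In OVA the order was Ear2 at 2.11, Ear1 at 2.03, Ear10 at 1.82, Prg2 at 1.26, Alox15 at 1.23 and Siglecf at 0.931 FPKM, and each of these overlapped its neighbours. In Herb it was Ear2 at 4.82, Ear1 at 4.08, Ear10 at 2.39, Alox15 at 2.03, Siglecf at 1.67 and Prg2 at 0.963 FPKM, again with neighbours overlapping. Thus in Saline the members above 1 FPKM were Ear1, Ear2, Siglecf and Ear10, while the granule genes Prg2 and Epx were at or near 0. The 8 genes therefore did not share 1 pattern, and the name of eosinophil genes is a grouping by known expression and not by these levels.

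Most other genes of eosinophils were low. Of 12 such genes, 4 were tested, and in FPKM as deposited none passed in OVA vs. Saline or in Herb vs. OVA, whereas 2 of the 4 rose in OVA vs. Saline at a common 75th percentile and 2 with the common protein-coding sum, where the median log2 change was 0.72. Il1rl1, the receptor of interleukin 33, rose in Herb vs. Saline in FPKM as deposited by a log2 change of 0.50 ± 0.15 (adjusted p = 0.037). Prg3, the second major basic protein gene, is listed at 0 in all libraries. Il5ra, the receptor for the growth factor of eosinophils, was between 0.097 and 0.500 FPKM, and Ccr3, their eotaxin receptor, between 0.041 and 0.375 FPKM. The highest Ccr3 and Gata1 values were both in the fourth Herb library, which also held the highest Prg2, Epx and Alox15. Among the Herb libraries, however, it held the lowest Ear1, Ear2 and Ear10, at 1.91, 3.99 and 2.02 FPKM.

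Of 11 genes that attract eosinophils or sustain their growth, 5 were tested. In OVA vs. Saline the chemokine Ccl8 rose by a log2 change of 2.06 ± 0.63 (adjusted p = 0.018), and Ccl5, Il33 and Tslp fell, with log2 changes of -2.64, -1.82 and -1.25. Ccl8 was 0.131 to 0.382 FPKM in Saline, 1.42 to 6.98 in OVA and 6.22 to 36.0 in Herb, with the highest value in the fourth Herb library. Ccl11, the eotaxin that binds Ccr3, was at 0.337 to 1.21 FPKM in Saline, 0.443 to 0.892 in OVA and 1.37 to 3.71 in Herb, and it rose in Herb vs. OVA by 0.81 ± 0.27 (adjusted p = 0.039), together with Ccl5 and Il33. Under the 3 scalings Ccl8 and Ccl5 passed in OVA vs. Saline, and none of the 5 passed in Herb vs. OVA under all 3. Il5, the main growth factor of eosinophils, did not exceed 0.265 FPKM, and Il3 and Il25 are listed at 0 throughout.

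Relatives of the members by enzyme or receptor family were counted next. Of the 13 other ribonucleases in the table, 4 were tested, and in OVA vs. Saline Rnase2a rose and Ear12 and Rnase4 fell, the last, a ribonuclease outside the eosinophil group, with a log2 change of -4.76. Of 9 other lipoxygenase and leukotriene genes, 4 were tested. In OVA vs. Saline, Alox5ap, Lta4h and Alox5, which act in leukotriene synthesis, fell with log2 changes of -1.31, -0.79 and -0.42, and the sign of Lta4h and Alox5 turned under all 3 scalings and that of Alox5ap under the common protein-coding sum. Alox15 rose in FPKM as deposited and under all 3 scalings. Of 10 other Siglecs and phosphatases that bind them, 7 were tested and the phosphatases Ptpn11 and Ptpn6 fell in OVA vs. Saline, with log2 changes of -1.37 and -0.50, Ptpn6 with its sign turned under all 3 scalings and Ptpn11 under the common protein-coding sum, while no Siglec passed in FPKM as deposited. Of these 7 genes, 4 rose and 0 fell with the common protein-coding sum, and 3 rose and 0 fell at a common 75th percentile. Siglec1, the macrophage receptor, rose in Herb vs. OVA by 0.36 ± 0.13 (adjusted p = 0.045), and its sign turned under all 3 scalings. Of 6 other haem peroxidases, 3 were tested and Pxdn and Ptgs2 fell in OVA vs. Saline in FPKM as deposited, with log2 changes of -2.44 and -0.93. With the common protein-coding sum both calls were lost, with Ptgs2 at -0.044 (adjusted p = 0.909) and Pxdn at an adjusted p of 0.071. Under that scaling 1 of the 3 rose and 0 fell, and at a common 75th percentile 0 rose and 1 fell. Pxdn kept its call in 17 of 18 alternatives. Mpo and Lpo, the nearest relatives of Epx, did not exceed 0.033 FPKM in any library.

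Markers of further cells moved as well. Of 7 markers of alternatively activated macrophages, 6 were tested and 3 rose in OVA vs. Saline (4 at a common 75th percentile and 6 with the common protein-coding sum), with Retnla at 0 to 5.61 FPKM in Saline, 630 to 4155 in OVA and 1142 to 3771 in Herb, and with Arg1 and Clec10a. Their summed level was 1.94 to 8.39 FPKM in Saline, 635 to 4183 in OVA and 1147 to 3809 in Herb. Nearly all of this sum was Retnla in OVA and Herb. The sum moved in the direction of Alox15, Prg2 and Rnase2a. Which cells held Retnla was not tested. The part of alternatively activated macrophages in the levels of Alox15, Prg2 and Rnase2a was not tested either. Of 10 neutrophil markers in the table, 7 were tested. In OVA vs. Saline Ltf rose and S100a8 and Cxcr2 fell in FPKM as deposited, whereas 1 rose and 0 fell both at a common 75th percentile and with the common protein-coding sum. The summed level was 42.0 to 476 FPKM in Saline, 11.6 to 57.8 in OVA and 54.4 to 138 in Herb. The Saline range depends on S100a9, which reached 416 FPKM there. S100a9 is listed at 0 in 1 Saline, 2 OVA and 3 Herb libraries, values that may be failed estimates. Of 9 basophil and mast cell markers, only Hdc was tested. It did not pass in FPKM as deposited, but rose in OVA vs. Saline by a log2 change of 1.15 with the common protein-coding sum and 0.80 at a common 75th percentile, and in Herb vs. Saline by 0.77 with that sum. Mcpt8, the basophil protease, did not exceed 0.237 FPKM. All 6 markers of lung tissue, such as Sftpc of alveolar type 2 cells and Cdh5 of vessels, were detected in every library. In OVA vs. Saline all 6 fell (5 at a common 75th percentile and 3 with the common protein-coding sum). The largest log2 changes were -3.27 for Sftpc, -3.25 for Cdh5, -2.66 for Ager and -2.45 for Sftpb. In Herb vs. OVA Cdh5, Sftpc, Ager and Scgb1a1 rose in FPKM as deposited. There 0 rose at a common 75th percentile or with the common protein-coding sum. In Herb vs. Saline Sftpb, Sftpc and Cdh5 fell. The summed level was 16726 to 26253 FPKM in Saline, 2859 to 5436 in OVA and 8442 to 13561 in Herb. Most of this sum was Scgb1a1, at 12768 to 22628 FPKM in Saline and 2471 to 5164 in OVA. The 6 markers moved in the direction of Ear1, Ear2 and Siglecf, and their part in those levels was not tested. Over all lists, 30 genes were called in OVA vs. Saline, of which 12 passed in the same direction under all 3 scalings, 6 higher and 6 lower. In Herb vs. OVA 18 were called and only Ngp, a neutrophil granule gene, passed under all 3. In Herb vs. Saline 19 were called and 11 passed under all 3. Of all symbols tested, 57.9% fell and 3.28% rose in OVA vs. Saline in FPKM as deposited. The shares were 0.446% and 44.0% in Herb vs. OVA, and 22.7% and 3.32% in Herb vs. Saline. With the common protein-coding sum, 8.81% of all symbols fell and 37.9% rose in OVA vs. Saline. The counts of the lists are to be read beside these shares.

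The symbols whose pattern over the 10 libraries was most like that of a member were found by Pearson's r of log2(FPKM + 1), a description over libraries that also share depth and mRNA fragment share. For Ear1 they were Igfbp6 (r = 0.987), Hnrnpa2b1 (0.986) and Snora34 (0.980). For Ear2 they were Tmem41b (0.985), Nop58 (0.980) and Dnajb9 (0.973). Siglecf was most like Htra3 (0.989), Cytl1 (0.987) and Sfta2 (0.987), and Ear10 like Prpsap1 (0.942), Map7d1 (0.928) and Rhot2 (0.924). Among the symbols most like Alox15 were Cacnb3 (0.976) and Cd163 (0.966), of which Cd163, a scavenger receptor of macrophages, had means of 1.65 FPKM in Saline, 3.70 in OVA and 6.02 in Herb. Among the members, Ear1 and Siglecf were the most alike (r = 0.967) and Ear1 and Alox15 the least (r = -0.704).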

How the data were processed

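RNA-seq of mouse lung was analysed in 10 libraries, grouped by their labels into Saline (n = 3), OVA (n = 3) and Herb (n = 4). The authors extracted total RNA and made the libraries with a TruSeq Stranded mRNA kit. The authors trimmed the reads, aligned them to mm10 with Hisat2, and quantified transcripts; cutadapt 1.10, StringTie 1.3.3b and edgeR 3.16.5 are named in the submitters' processing notes. The deposited values are FPKM per transcript row, without further scaling between libraries. The authors' own tests used edgeR on counts, which were not used here.

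Rows were summed per gene symbol, and limma 3.58.1 in R 4.3.3 (lmFit, eBayes with an intensity trend) was applied to log2(FPKM + 1) of all 10 libraries in 1 fit without covariates, over 11205 symbols with a mean of at least 1 FPKM. The Benjamini-Hochberg adjustment ran over all symbols, and an adjusted p under 0.05 was a call. Transcript rows were fitted likewise. Fragments were estimated from FPKM, transcript length (GENCODE vM21) and a depth taken from the smallest values, with a floor of 3 fragments that covers counting error only. For single values a two-sided exact permutation test was run, which can reach p = 0.1 at best between groups of 3 and p = 0.0571 between groups of 3 and 4. Alternatives were 3 scalings, a pseudocount of 0.1, no filter, no trend, only the 2 groups compared, the screen of the study (a log2 fold change of at least 1 with an unadjusted p under 0.05), a replicate block and leaving out each library. The procedure was tested on simulated data. Python 3.11.15, numpy 2.4.6, pandas 2.3.3, scipy 1.17.1 and matplotlib 3.10.9 were used otherwise.

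The members and the gene lists were chosen with earlier results of these data known. All 8 members are named. Of each other list, called genes are named, up to 4 per comparison with the largest change, besides genes of highest level or defining role, and for likeness the 3 symbols with the highest r for each tested member, of which 1 is not reported here. Other genes were named after their values were seen.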

Additional observations from a re-analysis of the deposited data

Results flagged for a closer look

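Of 10 measures examined in the 4 Herb libraries, 1 had a library far from the rest. Epx was at 0.114 FPKM in the fourth Herb library, and its gap to the next library, at 0.0153 FPKM, was 0.866 of the range of the group, above Dixon's critical value for 4 samples. About 1 in 20 groups of normally distributed values would be flagged by chance. That rate does not apply to Epx in Herb, where 2 libraries are listed at 0. The value corresponds to an estimated 6 fragments. The same library held the highest Herb values of Prg2 at 2.14 FPKM and of Alox15 at 3.25 FPKM. It also held the lowest Herb values of Ear1 at 1.91, Ear2 at 3.99 and Ear10 at 2.02 FPKM.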

How the results depend on the processing

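Each of the 15 member fold changes (5 genes in 3 comparisons) was refitted under 18 alternatives, which gave 222 of 270 values with the same direction and the same side of the threshold, 33 that lost the call, 3 that gained it and 12 that turned. Ear1 and Ear2 in OVA vs. Saline and Alox15 in Herb vs. Saline kept both under all 18. Under the 75th percentile, quantile normalization and the common protein-coding sum, in this order, Ear10 turned to 0.36, 0.18 and 0.62 in OVA vs. Saline, to -0.11, -0.10 and -0.23 in Herb vs. OVA, and to 0.26, 0.077 and 0.39 in Herb vs. Saline, and it was 0.0031 there without the first Saline library. In Herb vs. OVA under the common protein-coding sum, Siglecf turned to -0.035 and Alox15 to -0.093. The number of members called in Herb vs. OVA was 1, and was 0 under the 3 scalings, without the filter and by the screen of the study, 2 with a replicate block and 0 to 1 on leaving out 1 library. In Herb vs. Saline it was 4, and was 2, 1 and 2 under the scalings and 1 to 4 on leaving out 1 library. Single transcript rows gave 4 calls in OVA vs. Saline, 2 with the common protein-coding sum and 3 to 4 on leaving out 1 library. They gave 1 call in Herb vs. OVA, and 0 under the 3 scalings, with a pseudocount of 0.1, without the filter, with only the 2 groups compared and by the screen, and 0 to 1 on leaving out 1 library. They gave 3 calls in Herb vs. Saline, 1 under quantile normalization, 1 with a replicate block and 0 to 4 on leaving out 1 library. Of the other listed genes, 18 were called in Herb vs. OVA, and 1, 2 and 1 under the scalings and 7 to 18 on leaving out 1 library, with 7 without the first OVA library. In Herb vs. Saline 19 were called, 12 under quantile normalization and 11 to 21 on leaving out 1 library, with 11 without the second Saline library. In OVA vs. Saline, under the scalings in the order above, Lta4h turned to 0.24, 0.30 and 0.58, Alox5 to 0.30, 0.094 and 0.55, Ptpn6 to 0.51, 0.53 and 0.85, and Itgal to 0.45, 0.37 and 0.77. Ear12 turned to 0.15 under quantile normalization, and Alox5ap to 0.007 and Ptpn11 to 0.059 with the common protein-coding sum. In Herb vs. OVA, Lta4h turned to -0.10, -0.13 and -0.27, Siglec1 to -0.051, -0.045 and -0.18, and Mrc1 to -0.17 under quantile normalization and -0.12 with the common protein-coding sum. The cause of these changes was not tested.

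The replicate numbers do not pair the libraries: deviations of libraries with the same number correlated at -0.0087 to 0.0953, under the minimum of 0.1 for every pair. With the replicate block, Ear1 (0.99, adjusted p = 0.021) and Siglecf (0.46, adjusted p = 0.034) passed in Herb vs. OVA and Ear2 (1.07, adjusted p = 0.065) did not. Under other scalings the calls over all symbols shifted in direction: 6485 lower and 368 higher in OVA vs. Saline became 1922 and 2696 at a common 75th percentile, 1917 and 2087 under quantile normalization and 987 and 4242 with the common protein-coding sum, and 50 lower and 4932 higher in Herb vs. OVA became 51 and 39, 101 and 56, and 527 and 66. Depth limits Prg2, Epx and Ear6, with at most an estimated 35.1, 6.0 and 1.0 fragments.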
